A study of Mus musculus with 96 samples.

Results

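Hemidesmosomes and the basement membrane anchor the basal cells of an epithelium, and 9 genes for their parts were followed in 96 single cells labelled as horizontal basal cells (HBCs), a reserve stem cell population of the olfactory epithelium (OE) that is at rest until injury. The genes were chosen by name from the deposited count table, which lists 55487 genes: the integrin subunits Itga6, Itgb4, Itga3 and Itgb1, the hemidesmosome proteins Col17a1 and Dst, the laminin chains Lama3 and Lamb3, and the tetraspanin Cd151. All 9 were found, each in 1 row of the table, and all 9 passed the filter on low values that left 14463 genes to be compared (a count of at least 10 in at least 10% of cells).

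The cells came from wild type mice of 6 to 8 weeks. The OE was dissected 2 days after an injection of methimazole, a drug that injures this tissue, and its HBCs were cultured ex vivo on matrix-coated dishes with a switch from Tropoelastin to Fibronectin. Both daughter cells of 48 divisions were collected one by one, and the polyadenylated RNA of each was sequenced by G&T-seq after synthetic ERCC transcripts had been added to each lysate as a spike-in. Neither a mouse nor a culture is named for any cell, so that the cells were treated as 1 sample of 1 condition, all of them injured, cultured and dividing, and no tests were made.

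A hemidesmosome is built on the integrin α6β4, a dimer of the proteins of Itga6 and Itgb4, which binds laminin in the basement membrane and is tied to the keratin filaments inside the cell by plectin and by the epithelial form of dystonin (Dst, also called BPAG1e). The transmembrane collagen XVII (Col17a1) strengthens this link. Lama3 and Lamb3 encode chains of the laminin that epithelial cells secrete beneath hemidesmosomes. The integrin α3β1 (Itga3 and Itgb1) binds the same laminin outside hemidesmosomes, and CD151 is a tetraspanin that associates with both integrins. In the OE, HBCs are the cells that lie flat on the basement membrane, and these proteins hold them there.

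The sequence in front of the start sites is shown for 4 of these genes because they span the patterns described below: Itgb1 had the steadiest level, Col17a1 and Lamb3 had the largest shares of variance between pairs when all 48 pairs were used, and Itga3 moved with Itgb4. RefSeq (GRCm38.p6) listed 10 start sites for 6 of the 9 genes and none for Itga6, Itgb4 and the laminin α3 gene. The 250 bases before each start were searched on both strands for TATAA, for the GC box GGGCGG, for the TEAD site GGAATG, for the AP-1 site TGANTCA and for the half-site of the p53 family by its name, and the matches are in capitals. The windows are chr8:128685404-128685653 on the plus strand for Itgb1, chr19:47692043-47692292 on the minus strand for Col17a1, chr1:193301744-193301993 on the plus strand for the upstream of the pair of starts of Lamb3, and chr11:95076715-95076964 on the minus strand for the upstream start of Itga3.
Itgb1: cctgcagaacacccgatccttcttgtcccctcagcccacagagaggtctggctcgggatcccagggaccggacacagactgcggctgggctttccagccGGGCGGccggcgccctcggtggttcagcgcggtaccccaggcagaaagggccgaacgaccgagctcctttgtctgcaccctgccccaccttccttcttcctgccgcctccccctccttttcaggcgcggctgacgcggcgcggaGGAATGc
Col17a1: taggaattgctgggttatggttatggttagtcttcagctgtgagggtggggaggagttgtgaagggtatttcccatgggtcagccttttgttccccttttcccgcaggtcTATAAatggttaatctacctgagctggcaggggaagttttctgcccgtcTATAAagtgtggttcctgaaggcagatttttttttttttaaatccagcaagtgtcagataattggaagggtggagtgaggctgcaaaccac
Lamb3: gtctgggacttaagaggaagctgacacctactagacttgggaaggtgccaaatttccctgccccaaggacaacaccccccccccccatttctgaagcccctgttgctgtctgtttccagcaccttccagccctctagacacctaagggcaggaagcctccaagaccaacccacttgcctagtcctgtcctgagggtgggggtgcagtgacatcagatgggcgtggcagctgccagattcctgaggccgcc
Itga3: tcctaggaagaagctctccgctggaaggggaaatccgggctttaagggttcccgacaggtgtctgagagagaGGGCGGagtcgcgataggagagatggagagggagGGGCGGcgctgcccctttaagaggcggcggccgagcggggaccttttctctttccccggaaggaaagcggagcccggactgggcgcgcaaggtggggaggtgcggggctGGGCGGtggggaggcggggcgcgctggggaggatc
The Itgb1 window held a GC box 151 bases before the start and a TEAD site 7 bases before it. The Itga3 window held 3 GC boxes, at 178, 144 and 35 bases before the start. Col17a1 held no GC box but TATAA at 140 and 91 bases before the start, and the Lamb3 window shown held none of the letters searched. The G and C content was 68.0% for Itgb1, 67.6% for Itga3, 58.8% for Lamb3 and 46.0% for Col17a1. Among all 32851 windows of this length, 32.7% held a GC box, 22.8% TATAA, 12.6% a TEAD site, 7.13% the p53 family half-site and 6.75% an AP-1 site. Of the 10 windows of these genes, 5 held a GC box, 2 a TEAD site, 1 TATAA, 1 the half-site (Cd151) and none an AP-1 site. A match of letters is a description of the sequence and does not show that a factor binds there.

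Between 29454150 and 44849003 counts per cell fell on genes, and 11403 to 14632 genes were detected. ERCC transcripts took 1.06% to 5.75% of all counts. The names under which the data were deposited place the cells in 12 sets of 8, each of 4 whole pairs, and whether these were handled together is not stated. The HBC markers Trp63, Krt5, Krt14, Krt15 and Icam1 summed to a median of 6629 CPM, while the 6 fibroblast markers reached at most 57.5 CPM in any cell with Dcn and Lum at 0 throughout, the 3 endothelial markers at most 32.6 with Cdh5 at 0, and the 4 sustentacular markers at most 11.1 with Sult1c1 and Ermn at 0. The olfactory neuron lineage list reached at most 71.5 CPM with Kit at 0, and the 3 immune markers reached 286.7 CPM in 1 cell, all of it Cd68, with Tyrobp at 0 throughout.

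That cell was also the one that stood apart for the genes of interest. Daughter cell 2 of pair 4 (cell 4-2) had the lowest sum of the HBC markers, 229.9 CPM, and the lowest correlation with the other cells (median Spearman's rho 0.597 over the genes compared). Its total of 38588945 counts was ordinary. Its 11654 genes detected were near the lowest number of any cell (11403, with a median of 12865.5). ERCC transcripts took 4.50% of its counts, beside a median of 3.01%. Its label says horizontal basal cell, but its Krt14 level of 17.9 CPM lay below that of each of the other 95 cells (103.4 to 8634 CPM). Results that rest on this cell are given with and without it or its pair.

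All 9 genes had counts in all 96 cells (100%, exact Clopper-Pearson 95% confidence interval 96.2% to 100%), and they ranked high among expressed genes. Levels between genes were compared as TPM, a value the authors scaled by transcript length. In median TPM over 96 cells, the order was Itga6 (309.9), Itgb4 (278.7), Lamb3 (245.2), Itga3 (237.9), Itgb1 (231.4), Cd151 (148.1), Col17a1 (94.5), Dst (86.8) and Lama3 (50.0). The medians exceeded those of 82.5% (Lama3) to 96.9% (Itga6) of the genes compared. Together the 9 genes took a median of 0.482% of the counts of a cell.

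**Figure D1:**
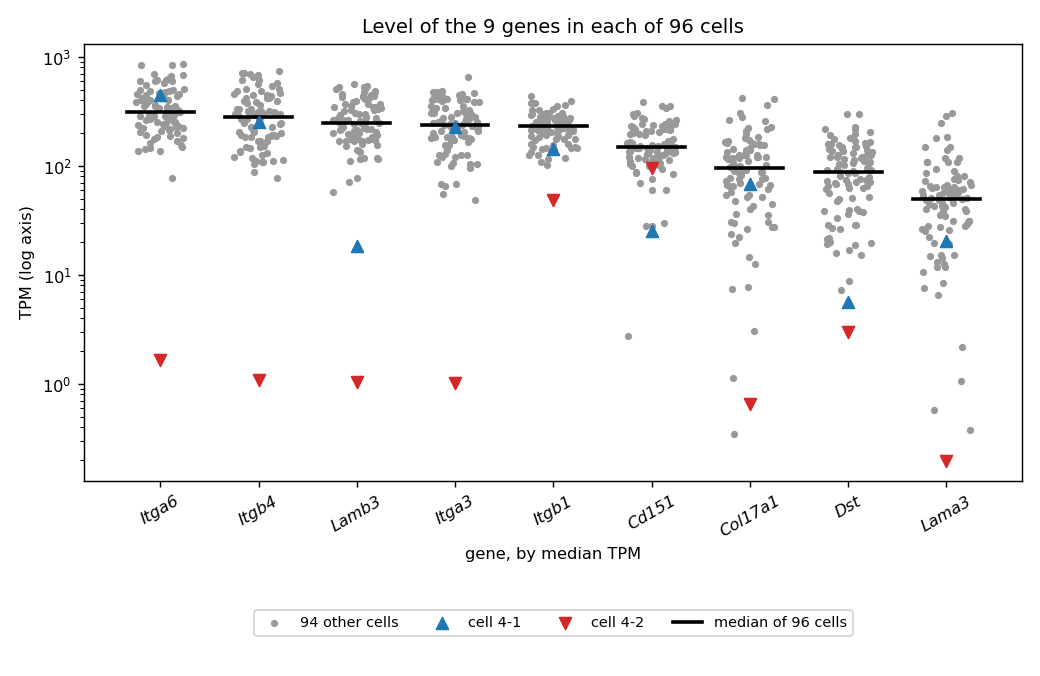
TPM (log axis) of each of the 9 genes in each of 96 cells, ordered by median (bars), with cell 4-1 as upward and cell 4-2 as downward triangles. The 4 integrin subunits and Lamb3 have medians of 231.4 to 309.9 TPM, and cell 4-2 lies far below every other cell for Itga6, Itgb4, Lamb3 and Itga3.

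Neighbours in this order were often exchanged from cell to cell. Itga6 was above Itgb4 in 63 of 96 cells, Itgb4 above Lamb3 in 55, Lamb3 above Itga3 in 53, Itga3 above Itgb1 in 54 and Col17a1 above Dst in 51. Only the steps from Itgb1 to Cd151 (74 of 96 cells), from Cd151 to Col17a1 (71) and from Dst to Lama3 (66) were wider than that from Itga6 to Itgb4. Neighbours among the integrins and Lamb3 thus did not separate beyond the spread between cells. Genes further apart in this upper group could: Itga6 was above Itga3 in 72 of 96 cells, with a median ratio of 1.35.

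The chains of the hemidesmosome integrin were present at like levels. Itga6 (ENSMUSG00000027111, integrin α6, chromosome 2 from 71745616 to 71858416 on the plus strand of GRCm38) had counts from 144 to 65418 with a median of 25480. Itgb4 (ENSMUSG00000020758, integrin β4, chromosome 11 from 115974709 to 116008412 on the plus strand) had counts from 169 to 84703 with a median of 32421.5. Both lowest values were those of cell 4-2, and the next lowest counts were 5963 for Itga6 and 9821 for Itgb4, so that every other cell had ample counts of each chain. Per length, the level of Itga6 was a median of 1.20 times that of Itgb4, with the middle 50% of cells between 0.898 and 1.57 and the extremes at 0.380 and 6.04. In cell 4-2 the ratio was 1.54, within that middle range, although both chains were at their lowest there.

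The chains of α3β1 were also near parity. Itga3 (ENSMUSG00000001507, integrin α3, chromosome 11 from 95044474 to 95076801 on the minus strand) had counts from 124 to 69652 with a median of 25953.5, the lowest in cell 4-2 and the next lowest 5353. Itgb1 (ENSMUSG00000025809, integrin β1, which pairs with many α chains, chromosome 8 from 128685654 to 128733200 on the plus strand) had counts from 4679 to 34361 with a median of 18915. It was the steadiest of the 9 genes, with an SD of 0.48 in log2(CPM + 1) over cells against 0.89 to 1.68 for the others, and 10.2% of the genes compared had a smaller SD. Without cell 4-2 its SD was 0.44, against 0.68 (Itga6) to 1.55 (Col17a1) for the others. The Itga3 level was a median of 1.04 times that of Itgb1 in TPM, from 0.734 to 1.41 in the middle 50% of cells. Cell 4-2 was the lowest for this ratio as well, at 0.0208, with 4679 counts of Itgb1 beside 124 of Itga3.

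Other α and β chains were scarce beside these. Of 12 further integrin subunits listed, 1 was detected in all cells (Itgav, median 12.7 TPM), 3 had a median TPM of at least 1 and 7 had a median of 0. Itga5, the partner of Itgb1 in the fibronectin receptor, was detected in 75 of 96 cells with a median of 3.07 TPM and a highest value of 48.5, although the culture included Fibronectin, and Itgb8 was detected in 1 cell. Fn1, the fibronectin gene, was picked for its place in the culture and not by the rule for named genes, and it was detected in 20 cells with a highest value of 23.5 TPM.

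Col17a1 and Dst were lower and more uneven than the integrins. Col17a1 (ENSMUSG00000025064, chromosome 19 from 47646344 to 47692094 on the minus strand) had counts from 46 to 50850 with a median of 11238 and the widest spread of the 9 genes, an SD of 1.68 in log2(CPM + 1), or 1.55 without cell 4-2. Its lowest counts were 46 in cell 20-2, 64 in cell 4-2, 124 in cell 19-2, 384 in cell 29-1 and 906 in cell 19-1. Dst (ENSMUSG00000026131, chromosome 1 from 33908225 to 34308661 on the plus strand) had counts from 1164 to 52585 with a median of 17052, and its lowest cells were the sisters 4-2 (1164) and 4-1 (1348). The count of Dst is for the whole gene, so that the epithelial form cannot be told from the longer ones. Per length, Col17a1 was a median of 0.350 times Itgb4 and exceeded it in 6 cells, and Dst was 0.295 times Itgb4 and exceeded it in 4.

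Plec, the gene of plectin, the other link from Itgb4 to keratin, was near Dst, with a median of 66.7 TPM (7.09 to 158.6) and a median ratio to Dst of 0.744. Krt14 and Krt5, the keratins of basal cells, were far higher, at medians of 3672 and 2090 TPM.

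The laminin chains did not match each other in level. Lama3 (ENSMUSG00000024421, laminin α3, chromosome 18 from 12333819 to 12583013 on the plus strand) had counts from 52 to 36784 with a median of 7208. Lamb3 (ENSMUSG00000026639, laminin β3, chromosome 1 from 193207699 to 193343878 on the plus strand) had counts from 106 to 47397 with a median of 21739.5. Lamb3 was a median of 4.95 times Lama3 in TPM and was the higher in 94 of 96 cells.

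Single cells nearly lacked Lama3 while they had Lamb3. Cell 38-2 had 88 counts of Lama3 beside 20443 of Lamb3. Cell 41-1 had 149 of Lama3 beside 11795 of Lamb3, cell 33-2 had 275 beside 19460, and cell 3-2 had 282 beside 26436. Apart from pair 4, no cell was nearly without Lamb3, whose next lowest count was 5659, in cell 45-1.

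The other laminin and basement membrane genes were mostly low. Of 8 further laminin chains examined, Lama5 (median 30.0 TPM) was detected in all cells, Lamc1 followed with a median of 20.3, 3 had a median TPM of at least 1, 4 had a median of 0 and Lamc3 was detected in 1 cell. Of 14 basement membrane collagens and linkers, 4 had a median of at least 1 TPM, led by Col18a1 (107.1), the source of endostatin, and Agrn (24.9), which encodes agrin, 6 had a median of 0, and Nid2 was detected in 2 cells. The chains of collagen IV, Col4a1 and Col4a2, each had counts in 51 cells with medians of 0.0233 and 0.0225 TPM. These 2 chains are named because they form the main collagen IV of basement membranes, and they fall outside the rule by which genes were named.

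Cd151 (ENSMUSG00000025510, chromosome 7 from 141467392 to 141471473 on the plus strand) had counts from 102 to 12633 with a median of 5304. Its lowest value was in cell 35-1, and the next lowest counts were 1127 in cell 12-1 and 1159 in cell 36-2. Among 4 other tetraspanins, Cd9 had a median of 1789 TPM and Cd81 of 540.9, both above Cd151, and Cd82 of 11.0. Of the other laminin receptors, Sdc4 (323.0) and Sdc1 (299.4), which encode syndecans, were at the level of the integrins, and Dag1, the gene of dystroglycan, had a median of 90.5 TPM.

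Sisters were compared by the ratio of the higher to the lower of their counts, normalized by the ERCC transcripts, with a pseudocount of 1. In a typical division the sisters differed by 1.29-fold to 1.69-fold, depending on the gene. The median ratio over 48 pairs was 1.29 for Itgb1, 1.37 for Itga6, 1.44 for Itgb4, 1.49 for Lamb3, 1.495 for Col17a1, 1.52 for Itga3, 1.53 for Cd151, 1.55 for Lama3 and 1.69 for Dst. With 1.5 as the cutoff, which Lamb3 and Col17a1 just missed, 4 of 9 genes reached it (Itga3, Dst, Lama3 and Cd151), beside 78.4% of the 14463 genes compared, whose median was 2.39.

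Low counts give wide ratios, and the 9 genes are abundant. Among the 2536 genes with a median TPM of at least that of Lama3, called genes of like level here, 60.1% reached the cutoff. Their median was 1.57, near the median of the 9 genes, 1.495. This set starts at the 50.0 TPM of Lama3, while Itgb1 was at 231.4 and Itga6 at 309.9 TPM. It is thus not matched to the level of each gene. ERCC transcripts hold no difference between sisters other than error and give the technical spread. The scaling itself rests on the same transcripts, which can narrow their spread. The 8 within the range of median TPM of the 9 genes had median ratios of 1.24 to 1.92, the highest at 75.4 TPM (ERCC-00131). Among these, ERCC-00042 at 258.6 TPM and ERCC-00111 at 270.8 TPM had 1.43 and 1.27. The 10 within the range of median counts of the 9 genes had 1.09 to 1.48. The median ratios of all 9 genes lay within the range that spike-in transcripts of like TPM showed, and those of Itgb1, Itga6 and Itgb4 also within that of transcripts of like counts. When the counts were scaled by the library total in place of ERCC, 3 of the 9 genes reached the cutoff, as did 62.2% of the genes compared. No gene of the 9 had a median ratio of 2, which 59.7% of the genes compared had.

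**Figure D2:**
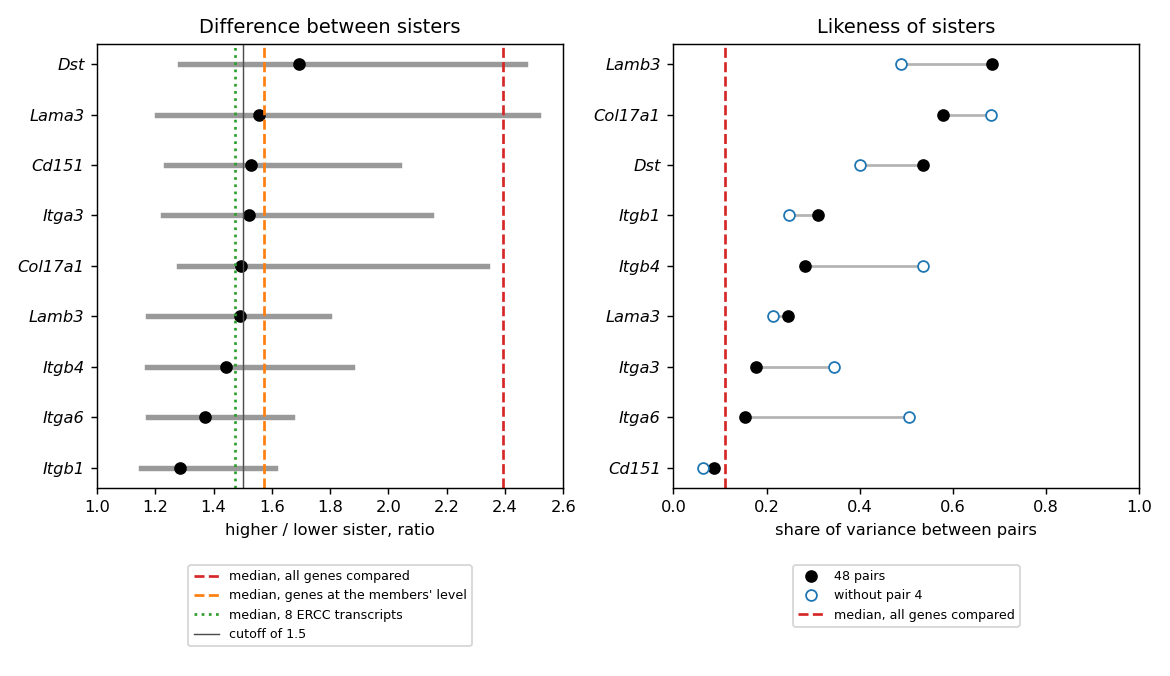
Left, ratio of the higher to the lower sister for each gene (points are medians and bars the middle 50% of 48 pairs), with the medians of all genes compared (2.39), of genes at or above the level of Lama3 (1.57) and of 8 ERCC transcripts (1.47). Right, share of the variance of log2(CPM + 1) between pairs with 48 pairs (filled) and without pair 4 (open), where Itga6 and Itgb4 move up and Lamb3 and Dst down when pair 4 is left out.

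By pair, the share at 1.5-fold or more ran from 14 of 48 pairs for Itgb1 (29.2%, exact Clopper-Pearson 95% interval 17.0% to 44.1%) to 28 of 48 for Dst (58.3%, 43.2% to 72.4%). It was 18 pairs for Itga6, 23 for Itgb4, 24 each for Itga3, Col17a1 and Lamb3, 26 for Cd151 and 27 for Lama3. The 8 spike-in transcripts of like TPM reached 1.5-fold in 10 (ERCC-00060) to 34 (ERCC-00131) of 48 pairs, a range that covers all 9 genes. Counts by pair over all genes compared are not given here. All intervals rest on the same 48 pairs and cover counting error over pairs only, so that they are not a comparison between genes. At least 1 of the 9 genes reached 1.5-fold in every pair, and the median number was 4. In 46 pairs 2 or more genes did, and in 14 of these they were all higher in the same sister. The number was also 14 with the library total, but these were partly other pairs. Pair 47 had 7 genes higher in cell 47-1 and 0 in cell 47-2 with ERCC, and 1 and 2 with the library total. Pair 23 had 1 in cell 23-1 and 4 in cell 23-2 with ERCC, and 0 and 7 with the library total.

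**Figure D3:**
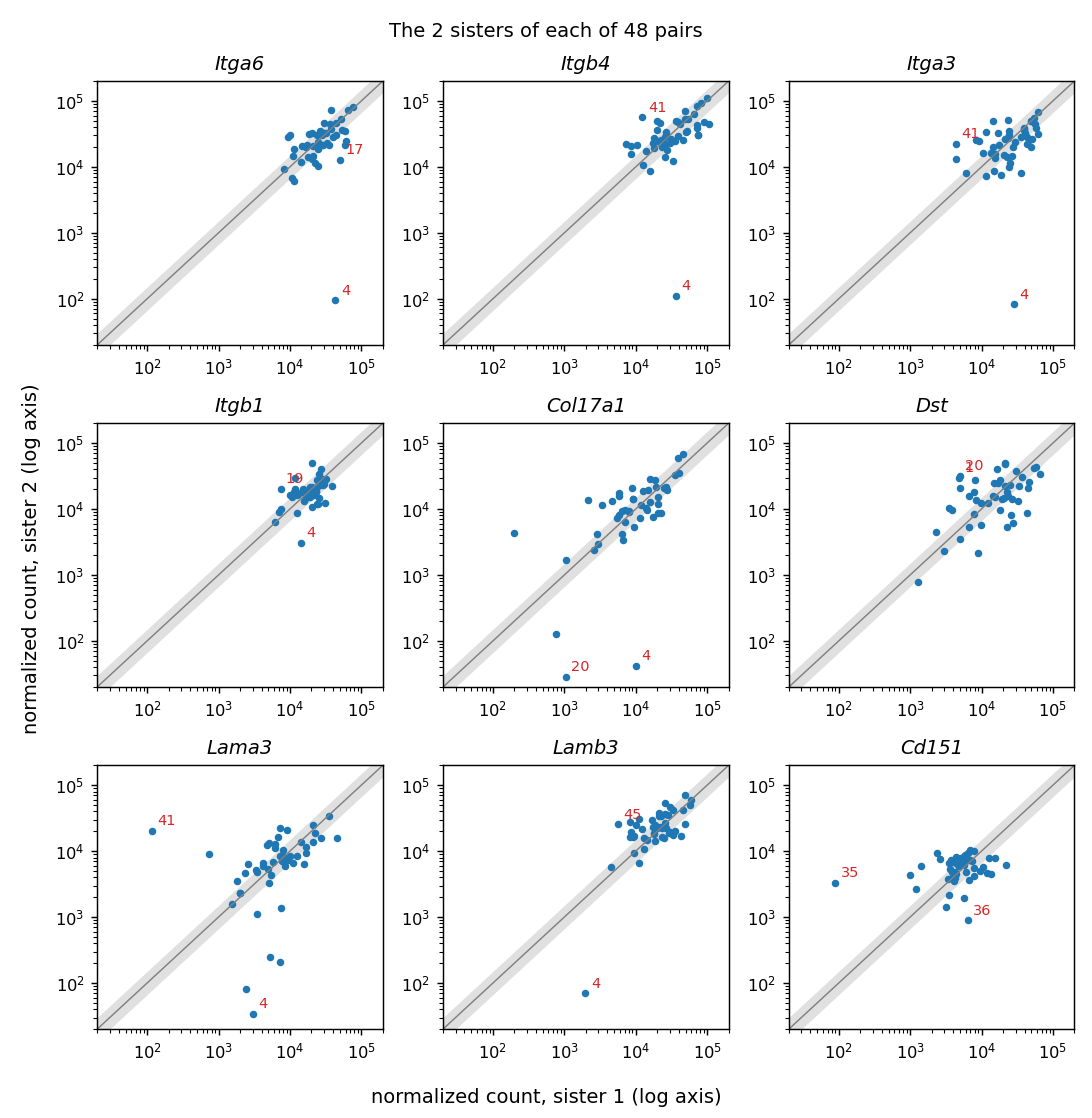
ERCC-normalized count (log axes) of each gene in daughter cell 1 against daughter cell 2 of 48 pairs, with the line of equality, a band of 1.5-fold and the numbers of the 2 most different pairs. Most pairs lie near the band, and single pairs lie far off it: pair 4 for 6 of the panels by more than 10-fold, pair 41 for Lama3 and pair 35 for Cd151.

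Ratios of 10 or more occurred in few pairs, and the genes concerned varied. Lama3 had 6 pairs at 10-fold or more, Col17a1 had 3, Itga6, Itgb4, Itga3, Lamb3 and Cd151 had 1 each, and Itgb1 and Dst had none. Pair 4 was among them for each of these genes except Cd151. The largest ratio of Lama3 was 173.5 in pair 41, from 149 counts in cell 41-1 and 24448 in cell 41-2. In that pair 6 genes reached 1.5-fold and all 6 were higher in cell 41-2, among them Itga3 (5.09-fold, 5685 and 27121 counts), Itgb4 (4.58-fold, 15951 and 68594) and Cd151 (4.26-fold, 1295 and 5184), while Lamb3 differed 1.80-fold.

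In pair 32 (756 and 9170 counts of Lama3, 12.6-fold) 6 genes also reached 1.5-fold, all of them higher in cell 32-2, with Lamb3 at 1.75-fold. The other pairs with a Lama3 ratio over 10, pair 4 aside, had fewer genes at 1.5-fold and in both directions. These were 4 genes in pair 33 (9904 and 275 counts, 34.5-fold), where Lamb3 differed 1.01-fold, 5 in pair 38 (2205 and 88, 29.0-fold), where it differed 1.60-fold, and 5 in pair 3 (7635 and 282, 21.6-fold), where it differed 1.32-fold. With the library total in place of ERCC, this contrast with pair 32 did not hold. Pair 32 then had 3 such genes and pair 3 had 4, in each pair all higher in the same sister. Pairs 33 and 38 had 4 each, in both directions.

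Col17a1 showed both unlike and alike pairs. It differed 35.2-fold in pair 20 (1872 and 46 counts) and 21.6-fold in pair 29 (384 and 6566). In pair 20 Dst went the other way, with 8786 counts in cell 20-1 and 50936 in cell 20-2, its largest ratio of all pairs (6.48). In pair 19 both sisters were low in Col17a1 (906 and 124 counts). For Cd151, pair 35 (102 and 4034 counts, 36.8-fold) stood alone, and the next ratio was 7.16 in pair 36.

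Pair 4 gave the widest contrast between sisters for 6 of the 9 genes: Itga6, Itgb4, Itga3, Itgb1, Col17a1 and Lamb3. For Lama3 it came after pair 41. Cell 4-1 had 44964 counts of Itga6 where cell 4-2 had 144, and the normalized counts differed 449.6-fold. The counts were 38024 and 169 for Itgb4, 29257 and 124 for Itga3, 10519 and 64 for Col17a1, and 3111 and 52 for Lama3. These values put cell 4-1 within the range of the other cells for these 5 genes and cell 4-2 at or near the bottom.

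The values of the other 4 genes took other forms in that pair, although Itgb1 (4.63-fold) and Lamb3 (27.8-fold) also differed most there. Itgb1 had 14880 and 4679 counts, so that cell 4-2 had many more counts of the β1 chain than of its partner α3. Dst (1348 and 1164) and Lamb3 (2052 and 106) were low in both sisters, and in CPM cell 4-1 was the lowest of the other 95 cells for both. Cd151 went the opposite way, with 1247 counts in cell 4-1 and 4057 in cell 4-2, where 17 of the other 95 cells were lower.

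Against the median of the other 95 cells in CPM, cell 4-2 was lower by 219.0-fold for Itga3, 217.6-fold for Lamb3, 209.9-fold for Itgb4, 184.1-fold for Col17a1, 183.8-fold for Itga6 and 148.6-fold for Lama3. Dst was lower by 15.2-fold, Itgb1 by 4.45-fold and Cd151 by 1.42-fold. For 6 of the 9 genes the value in cell 4-2 was at most 1/100 of that median, as it was for 9.78% of the 2536 genes of like level. It was the lowest of all 96 cells in CPM for 6 of the 9 (Itga6, Itgb4, Itga3, Itgb1, Lama3 and Lamb3), as it was for 13.6% of the 4600 genes compared that had a count in every cell.

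Partners of the 9 genes in cell 4-2 were unevenly low. Krt14 was 211.7-fold, Col18a1 177.3-fold, Agrn 174.2-fold and Krt5 16.2-fold below the median of the other cells, Plec 8.42-fold and Sdc1 3.35-fold. Dag1 was at 276.8 CPM beside a median of 269.9, and Sdc4 (881.4 beside 471.1) and Cd9 (1836 beside 1332) were above it. Among genes picked after their values were seen, Bcam, a receptor of laminin α5, was 157.7-fold lower, and Parva, an integrin adaptor, was higher than in any other cell (432.6 CPM beside a highest of 271.3).

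**Figure D4:**
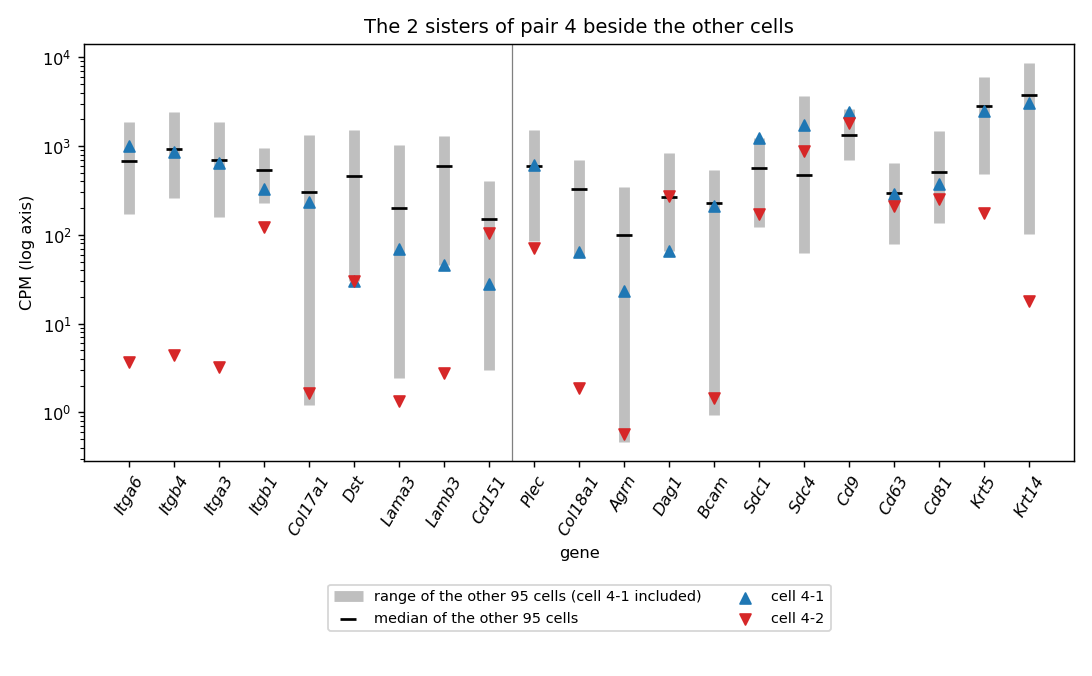
CPM (log axis) of the 9 genes, left of the line, and of related genes in cells 4-1 and 4-2, with the range and median of the other 95 cells. Cell 4-2 lies below or at the foot of the range for 8 of the 9 genes and for Krt5, Krt14, Plec and Col18a1, and within it for Dag1, Sdc4, Cd9, Cd63 and Cd81.

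Other transcripts marked cell 4-2 as well, and these were also picked after their values were seen. Cyp2a5, a cytochrome P450, had 259709 counts there (6730 CPM) and at most 16.2 CPM elsewhere, and Ugt2a1, a glucuronosyltransferase of the olfactory mucosa, had 4509 CPM and at most 155.6 elsewhere. Cyp2f2, another cytochrome P450, had 1279 CPM and at most 243.0 elsewhere. Sprr2a1, a gene of the cornified envelope, was at 29851 CPM, beside a median of 285.1 and a highest of 17083. All 4 sustentacular markers (Cyp2g1, Sult1c1, Ermn and Il33) were at 0 in that cell, and of the olfactory neuron lineage list none was counted. These zeros do not set it apart. Sult1c1 and Ermn were at 0 in all cells, Cyp2g1 was above 0 in 1 other cell and Il33 in 7, and the neuron list summed to a median of 0 CPM. The sister 4-1 had the highest Krt6a (17548 CPM) and Cnfn (9433 CPM) of all cells, both genes of keratinized or wounded epithelium. The part of these changes in the loss of hemidesmosome transcripts was not tested.

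How alike sisters were beyond the spread of all cells was described by the share of variance between pairs, the intraclass correlation of log2(CPM + 1), which is 1 when sisters are identical and about 0 when they are as unlike as any 2 cells. Over 48 pairs it was 0.683 for Lamb3, 0.578 for Col17a1, 0.535 for Dst, 0.311 for Itgb1, 0.281 for Itgb4, 0.246 for Lama3, 0.176 for Itga3, 0.153 for Itga6 and 0.0877 for Cd151. Lamb3, Col17a1 and Dst, 3 of 9, were over 0.5, as were 4.40% of the genes compared, whose median was 0.111.

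Pair 4 weighed on these shares in both directions. Without it, the values were 0.681 for Col17a1, 0.536 for Itgb4, 0.507 for Itga6, 0.488 for Lamb3, 0.401 for Dst, 0.344 for Itga3, 0.247 for Itgb1, 0.214 for Lama3 and 0.0643 for Cd151. Again 3 of 9 were over 0.5, now Col17a1, Itgb4 and Itga6, beside 4.07% of the genes compared. Against the 2536 genes of like level they stood out less: Col17a1 exceeded 97.3% of these, Itgb4 90.9% and Itga6 88.6%. Col17a1 was thus over 0.5 in both cases, and without pair 4 its share was above that of 99.3% of the genes compared. Cd151 was below the median of all genes in both.

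Over 48 pairs the median share was 0.281 for the 9 genes and 0.229 for the genes at or above the level of Lama3. Without pair 4 these were 0.401 and 0.221, and with set means removed over 48 pairs 0.114 and 0.0756. The 12 sets differed as well: they held 27.9% of the variance of Col17a1, 24.2% of that of Dst and 6.94% of that of Itgb1, beside a median of 13.5% over the genes compared. With the mean of each set removed, the shares fell to 0.585 for Lamb3, 0.414 for Col17a1, 0.386 for Dst, 0.259 for Itgb1, 0.114 for Itgb4, 0.0383 for Lama3, 0.0170 for Itga3, -0.06 for Cd151 and -0.07 for Itga6 over 48 pairs, beside a median of -0.04 over the genes compared. The lowest and highest set medians of Col17a1 were 39.8 and 218.3 TPM, those of Dst 33.1 and 146.1, and those of Itgb1 181.8 and 281.1, and for all 9 genes the cells of the lowest and highest set overlapped. Since the sets hold whole pairs, and their handling and origin are not stated, a mouse, a culture or a handling step that sisters share cannot be told apart from descent from 1 mother cell.

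Across cells, the 9 genes were weakly linked. Spearman's rho of CPM over 96 cells was a median of 0.230 over the 36 combinations, from -0.05 to 0.55, with 34 above 0. All combinations of the 2536 genes of like level had a median of 0.0106. The cells share pairs and sets and are not independent. Itgb4 and Itga3 were the most alike (0.551), followed by Col17a1 and Dst (0.464), Itga6 and Itgb4 (0.435), Itgb4 and Lamb3 (0.401), Itgb4 and Col17a1 (0.396) and Dst and Lamb3 (0.378).

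Partners in a complex were not always the closest. Itga3 and Itgb1 had 0.313, below Itga3 and Itgb4, whose proteins do not pair. Lama3 and Lamb3 had 0.179. Dst and Itgb4 had 0.271. Cd151 was near 0 with most of the others, at 0.180 with Itga3 and 0.101 with Itga6.

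Cell 4-2 added to these values little on ranks and much on linear correlation. Without it, Spearman's rho was 0.537 for Itgb4 and Itga3, 0.448 for Col17a1 and Dst, 0.417 for Itga6 and Itgb4, and a median of 0.206 overall. Pearson's r on log2 values fell from 0.715 to 0.410 for Itga6 and Itgb4, and from 0.512 to -0.01 for Itga6 and Lamb3. When the ERCC scaling replaced the library total, the median rose to 0.452 and all 36 were above 0.

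**Figure D5:**
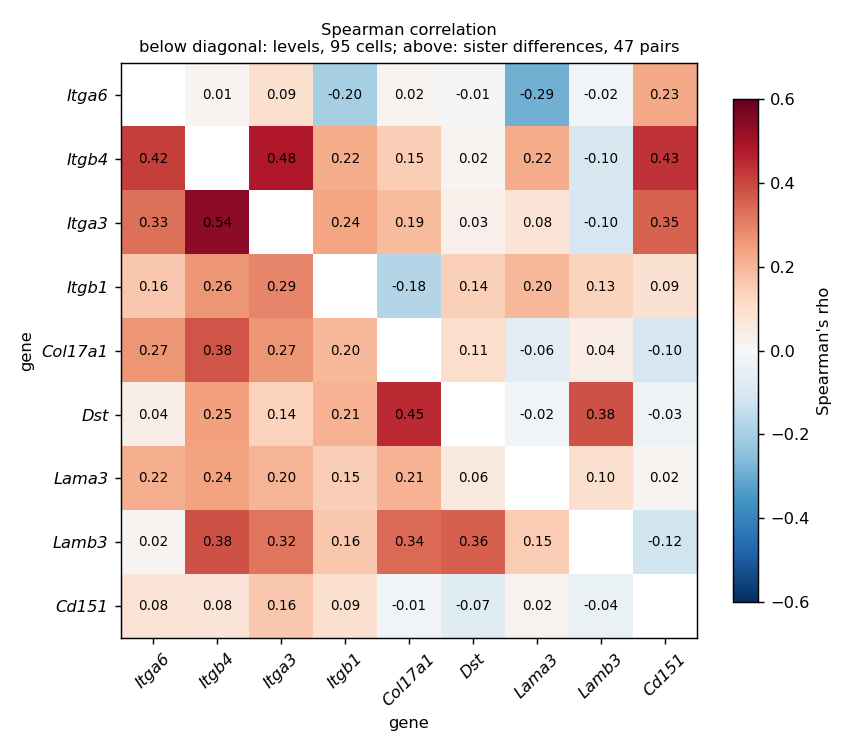
Spearman's rho for each combination of the 9 genes, below the diagonal over the levels in 95 cells without cell 4-2 and above it over differences between sisters in 47 pairs without pair 4. Itgb4 with Itga3 is high in both parts (0.54 and 0.48), and Itga6 with Itgb4 is high in levels (0.42) but not between sisters (0.01).

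Differences between sisters, which leave out whatever a pair shares, gave a different picture. Their median correlation was 0.0859 over 48 pairs, or 0.0621 without pair 4. Itgb4 and Itga3 still moved together (0.512, and 0.480 without pair 4), with the same sister higher in 34 of 48 pairs in CPM and in 36 with the ERCC scaling. Itgb4 and Cd151 (0.359, and 0.434 without pair 4) and Dst and Lamb3 (0.367 and 0.384) did as well. Itga6 and Itgb4 did not (0.0725 and 0.0120), nor did Col17a1 and Dst (0.0963 and 0.108), although both combinations were linked over cells. For Itga6 and Itgb4 the same sister was higher in 29 of 48 pairs in CPM and in 26 with the ERCC scaling. For Col17a1 and Dst these were 23 and 30. The part of technical spread in these low values was not tested.

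The genes most like each of the 9 over 96 cells included the keratin gene Krt14 and Plec. Of the 9 themselves, only Itgb4 and Itga3, whose proteins do not pair, came up for each other. Itgb4 was closest to Itga3 (0.551) and Sipa1l3 (0.479), and Itga3 to Ahnak (0.551) and Itgb4 (0.551). Otud4 (0.508) and Flnc (0.506) were among the genes most like Lama3. Lamb3 was closest to Ccdc50 (0.511) and Plec (0.443), Col17a1 to Krt14 (0.555) and Igfbp3 (0.554), and Dst to Krt14 (0.515) and Golim4 (0.475). Itga6 was closest to Tmprss11b (0.541) and S100a6 (0.519), Itgb1 to Anxa2 (0.422) and Exosc2 (0.407), and Cd151 to Ccnb2 (0.397) and Babam1 (0.368). For each gene, 95% of the genes compared were at 0.223 or lower.

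The mean of the 9 genes, each scaled to equal spread, was closest to Ahnak (0.606), which encodes a large membrane-associated scaffold, Anxa2 (0.583), an annexin, Slc39a6 (0.547), a zinc transporter, Krt14 (0.518) and Golim4 (0.517). It was lowest with Kdm7a (-0.51), a histone demethylase, Ftl1 (-0.46) and Fth1 (-0.46), the chains of ferritin, Gclm (-0.46), a subunit of the enzyme that starts glutathione synthesis, and Creg1 (-0.45). Without cell 4-2 these values ran from 0.485 to 0.610 and from -0.50 to -0.42.

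In relation to cell state, the mean of the 9 genes was correlated most with basal genes. It had a correlation of 0.407 with the basal list (Trp63, Krt5, Krt14 and Krt15), and 0.385 without cell 4-2. Col17a1 (0.514) and Dst (0.519) were the closest to this list, and Itga6 (-0.00), Lama3 (-0.03) and Cd151 (0.0316) were not linked to it. Of the genes of this list, Krt14 and Krt5 were closer to them than Trp63: Trp63, which encodes p63, had 0.237 with Col17a1, 0.299 with Dst and 0.0705 with Itgb4, while Krt5 had 0.441, 0.421 and 0.444.

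With the cycling list (8 genes, among them Mki67 and Top2a) the mean had a correlation of -0.21, which became 0.208 with the ERCC scaling, 0.0501 with the means of the sets removed and 0.176 for differences between sisters, so that no direction can be given. With the suprabasal list of 12 genes it was 0.0075. The correlation of the mean with the total counts of a cell was -0.11, with the ERCC percentage -0.14 and with the number of genes detected 0.175.

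Related genes outside the 9 were followed as lists. All 3 hemidesmosome partners (Plec, Krt5 and Krt14) were positively correlated with the mean of the 9, with a median of 0.441 over 95 cells, and 1 of 3 (Plec, 1.504) had a median sister ratio at the cutoff. The 4 laminin chains compared had a median of 0.172 and all 4 reached the cutoff, the 10 basement membrane collagens and linkers had 0.105 and 8 reached it, and the 4 laminin receptors had 0.107 and 3 reached it. The 6 other integrin subunits compared had a median of 0.0928 with 5 at the cutoff, the 4 tetraspanins 0.175 with 1 (Cd82), the 10 adaptors, from Zyx (101.0 TPM) and Lims1 (49.4) to Ilk (0), had 0.0472 with 9, and the 5 matrix genes, led by Mmp14 (44.0) and Plau (6.88) and with Tnc at 0, had 0.127 with 4. These shares stand beside the 78.4% of all genes compared.

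Overlap with neighbouring genes could add counts to 5 of the 9. The library does not mark strand, and genes overlapped Itga6, Dst, Lama3, Lamb3 and Cd151 in the annotation of the files, but their median levels were at most 0.628 TPM.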

How the data were processed

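Reads were trimmed (Trimmomatic 0.39), aligned (STAR 2.7.11a) to GRCm38 plus ERCC sequences and quantified (StringTie 2.2.1, annotation of Ensembl release 100) by the authors. The deposited values are raw counts of each gene in each cell, and TPM. There are no molecular identifiers, so PCR copies are counted as reads and intervals cover counting error only.

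From the counts, size factors were computed by the median-of-ratios method from those ERCC transcripts that every cell contained (22 of 92), and CPM from the total on genes. Sister ratios used ERCC-normalized counts with a pseudocount of 1. Shares of variance and Spearman's rho used CPM, as log2(CPM + 1) for the former. Genes compared had at least 10 counts in at least 10% of cells. Python 3.11.15, numpy 2.4.6, pandas 2.3.3, scipy 1.17.1 and matplotlib 3.10.9 were used, and calculations were tested on simulated data. The labels name no mouse or culture, so cells are not replicates of a condition, no p-values were computed and 95% intervals are exact Clopper-Pearson intervals.

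The 9 genes and all lists were chosen with earlier results of these data known. Named besides the 9 were the 2 highest genes and the lowest gene of each list by median TPM, all laminin and integrin genes as counts, the 2 genes most like each of the 9, and the 5 most and 5 least like their mean. Genes outside this rule are marked in the text, and some items are not reported here. Alternatives were other scalings, cutoffs, pseudocounts and gene filters, set means removed, and pairs or sets left out. Leaving out pair 4 or cell 4-2 was added after seeing the data.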

Additional observations from a re-analysis of the deposited data

How the results depend on the processing

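The number of the 9 genes with a median sister ratio of 1.5 or more was 4, and 3 to 6 under 4 other scalings (library total, ERCC total, median of ratios over genes, TPM), another pseudocount, or without pair 46, pair 4 or any 1 set. At a cutoff of 2 it was 0. The median share of variance between pairs was 0.281, and 0.114 to 0.455 under its alternatives, the ends coming from removal of set means and from leaving out 1 set. The median correlation between the 9 genes was 0.230 and rose to 0.452 with ERCC scaling and 0.413 with Pearson's r on log2 values, and was 0.0859 for differences between sisters and 0.0621 for these without pair 4. Leaving out 1 set gave 0.207 to 0.247. The median percentile of the 9 genes by sister ratio was 21.3 among the genes compared, 62.8 among all 32924 genes with a count, most of which have few, and 13.8 among the 10375 genes with 10 counts in 50% of cells. The correlation of their mean with the basal list rose from 0.407 to 0.534 with ERCC scaling. With the cycling list it reversed from -0.21 to 0.208 with ERCC scaling, 0.0501 with set means removed and 0.176 for sister differences. With the suprabasal list it moved from 0.0075 to 0.331 with ERCC scaling and -0.12 for sister differences. The causes were not tested. Daughter cells are numbered 1 and 2 in each pair without further meaning.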
